A study of Mus musculus with 6 samples.

Results

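The genes described here encode the matrix metalloproteinases (Mmp), the membrane-bound ADAM proteinases (Adam), the secreted ADAMTS proteinases and ADAMTS-like proteins (Adamts, Adamtsl), and the tissue inhibitors of metalloproteinases (Timp). They were taken by symbol, as every gene whose name on the array starts with Mmp, Adamts, or Timp or Adam followed by a digit. This gave 77 genes on 131 probes, of 27575 gene names on the array: 21 Mmp, 4 Timp, 29 Adam, 18 Adamts and 5 Adamtsl genes. A gene was tested where all 3 arrays of a group read at least 1 of its probes as well above background, which held for 44 of the 77: 16 Mmp, 3 Timp, 11 Adam, 12 Adamts and 2 Adamtsl genes. Of these 44, 36 were above background on all 6 arrays and 8 passed through the PBS arrays alone.

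Total RNA was measured on 6 one-colour Agilent arrays, each from a culture of primary keratinocytes, the cells that build the epidermis, taken from newborn mice of wild-type genotype. Both groups carried v-ras-Ha, an oncogenic form of the Ras signalling protein, delivered by what the labels call an adenovirus infection, at 10 particles per cell for 30 minutes with 4 ug/ml Polybrene, and no culture without the oncogene was analysed here. From 5 hours after transduction, 3 cultures received Anakinra at 5 ug/ml and 3 received PBS for 3 days, with the antagonist renewed after 2 days. Anakinra is a recombinant interleukin-1 (IL-1) receptor antagonist, so the comparison asks which genes respond to IL-1 receptor signalling when Ras is active. The isolate also held hair follicle buds per the labels. Whether replicates are separate animals is not stated, so the p-values reflect the spread among these cultures alone, which may be technical. In bulk RNA, fewer cells of a type and less RNA per cell cannot be told apart.

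Metalloproteinases cut proteins outside the cell with a zinc ion in the active site. Most are made with a pro-domain that keeps them inactive until it is removed, and TIMPs block the active enzymes by binding the active site. MMPs cut collagens, laminins, other matrix proteins and many cytokines, ADAMs release growth factors, cytokines and adhesion molecules from the cell surface, and ADAMTSs cut proteoglycans and process procollagens. In skin these enzymes serve wound closure and remodelling, and several secreted MMPs are classical targets of IL-1 and of the AP-1 transcription factors that act downstream of Ras.

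The start regions of the MMP genes clustered on mouse chromosome 9 are shown because Mmp3 fell and the other genes of the cluster did not pass the test. RefSeq windows of 300 bases (250 before to 50 after the annotated start, build GRCm38.p6) matched 28 of the 44 tested genes, in 30 windows. AP-1 sites were searched as TGANTCA, which reads the same on both strands, and TATA boxes as TATAAA on the strand of the gene. Both motifs stood in the windows of exactly 5 of the 28 genes, Mmp13, Mmp12, Mmp3, Mmp1a and Mmp10, which are neighbours on the chromosome. The window of Mmp8, the other tested gene of the cluster, held neither motif and is not shown. Each stretch below runs from 80 bases before to 20 after the annotated start, 5′ to 3′ on the plus strand, with both motifs in capitals. The 2 motifs do not overlap in any of them.
Mmp13 (chr9:7272434-7272533): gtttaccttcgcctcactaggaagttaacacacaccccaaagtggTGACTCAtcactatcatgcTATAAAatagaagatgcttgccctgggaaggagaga
Mmp12 (chr9:7347294-7347393): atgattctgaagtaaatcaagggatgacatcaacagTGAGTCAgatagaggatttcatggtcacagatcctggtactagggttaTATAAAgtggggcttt
Mmp3 (chr9:7445742-7445841): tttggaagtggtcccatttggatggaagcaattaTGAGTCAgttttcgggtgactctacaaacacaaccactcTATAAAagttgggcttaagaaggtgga
Mmp1a (chr9:7464061-7464160): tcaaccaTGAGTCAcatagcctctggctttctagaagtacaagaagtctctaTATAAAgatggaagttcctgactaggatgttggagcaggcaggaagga
Mmp10 (chr9:7502262-7502361): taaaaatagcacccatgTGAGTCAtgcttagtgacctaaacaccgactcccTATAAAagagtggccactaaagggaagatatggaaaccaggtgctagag
Timp1 (chrX:20870086-20870185), which holds neither motif: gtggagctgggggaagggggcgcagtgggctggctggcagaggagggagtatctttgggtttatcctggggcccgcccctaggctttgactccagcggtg

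The AP-1 match began 46 bases before the start in Mmp3, 35 in Mmp13, 44 in Mmp12, 63 in Mmp10 and 73 in Mmp1a. Counted start to start, it lay 19 bases ahead of the TATA match in Mmp13 and 48 bases ahead in Mmp12, where the TATA match falls after the annotated start. Mmp12 has 2 windows, and the one shown was chosen because it holds the motifs. Among all 32851 RefSeq windows, 7.81% held the AP-1 motif, 8.32% held TATAAA and 0.995% held both. TATAAA also stood in the Adamts1 window. The NF-kB consensus, searched on both strands, was in 4.51% of all windows and in 0 of these 30. Mmp9, Adamts5 and Mmp16 had no matched window, so no motif was searched in them. A match is a description of the letters and not evidence of binding.

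Before the results, some arrays stood apart. Spots well above background made up 62.5% to 71.0% of the PBS arrays, 56.1% of Anakinra 1, 86.5% of Anakinra 2 and 55.6% of Anakinra 3, with no saturated spot, and array pairs correlated at 0.995 to 0.997 in PBS and 0.957 to 0.983 in Anakinra. Anakinra 2 gave the highest signal of the 6 arrays for 22 of the 44 genes (35.8% of all genes), and for 18 of the 22 dimmer ones. The arrays lay on 2 slides. Slide 1 carried PBS 2 and 3 with Anakinra 1, and slide 2 carried Anakinra 2 and 3 with PBS 1. The change from PBS to Anakinra had opposite signs on the slides for 16 of the 22 dimmer genes and 5 of the 22 brighter ones. The median standard error (SE) was 0.115 on the log2 scale in the brighter genes and 0.439 in the dimmer ones.

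Of the 44 tested genes, 2 rose under Anakinra (Timp1 and Adamts5), 1 fell (Mmp3) and 41 did not pass the test. The test was limma's, with Benjamini-Hochberg adjustment over all 16506 genes tested and a threshold of 0.05. It called 1.77% of all genes: 160 higher (0.969%) and 132 lower (0.8%), or 8 higher and 49 lower when arrays were scaled on their medians. An unadjusted p under 0.05 was found for 11 of the 44, against 16.1% of all genes. In 13 of the 44 the groups did not overlap, 6 higher and 7 lower under Anakinra, against 26.2% of all genes (12.5% higher, 13.8% lower). The median log2 change of the 44 was 0.12, beside 0.01 over all genes, and it was -0.14 within slide 1, 0.44 within slide 2 and -0.11 without Anakinra 2.

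**Figure D1:**
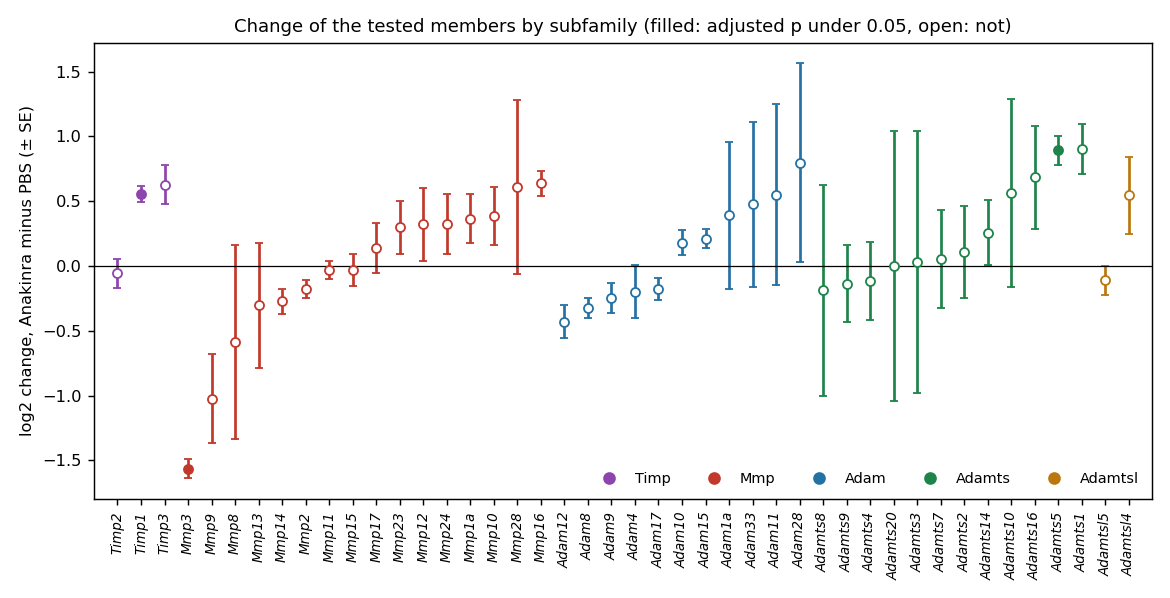
Log2 change, Anakinra minus PBS, of the 44 tested genes, grouped by subfamily, with bars of 1 SE (limma, 3 arrays per group). Only Mmp3, Timp1 and Adamts5 are drawn filled (adjusted p under 0.05), and the genes with the longest bars, such as Adamts20 and Adamts3, are dim ones.

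Mmp3 encodes stromelysin 1, which cuts proteoglycans, laminin and non-fibrillar collagens and activates other pro-MMPs. It fell 2.96-fold, the largest change of the 44 genes when each is read from its brightest probe. Its processed intensity was 741, 868 and 868 units in PBS 1, 2 and 3 and 289, 301 and 336 units in Anakinra 1, 2 and 3. Relative to the 75th percentile of each array, the scale used from here on, its log2 signals came to -0.22, -0.19 and -0.21 in PBS and -1.79, -1.85 and -1.67 in Anakinra. All 3 Anakinra arrays lay below all 3 PBS arrays, by far more than the spread within either group. The log2 change was -1.56 ± 0.072 (SE, limma adjusted p = 0.00252), with a 95% interval from -1.75 to -1.38, and was -1.60 within slide 1 and -1.54 within slide 2. It still passed with the slide as a block, and without PBS 2 it was -1.55 with an adjusted p of 0.0634. Mmp3 rests on 1 probe, at chr9:7455751-7455810 on the plus strand of build mm8, the build of the array's own annotation.

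**Figure D2:**
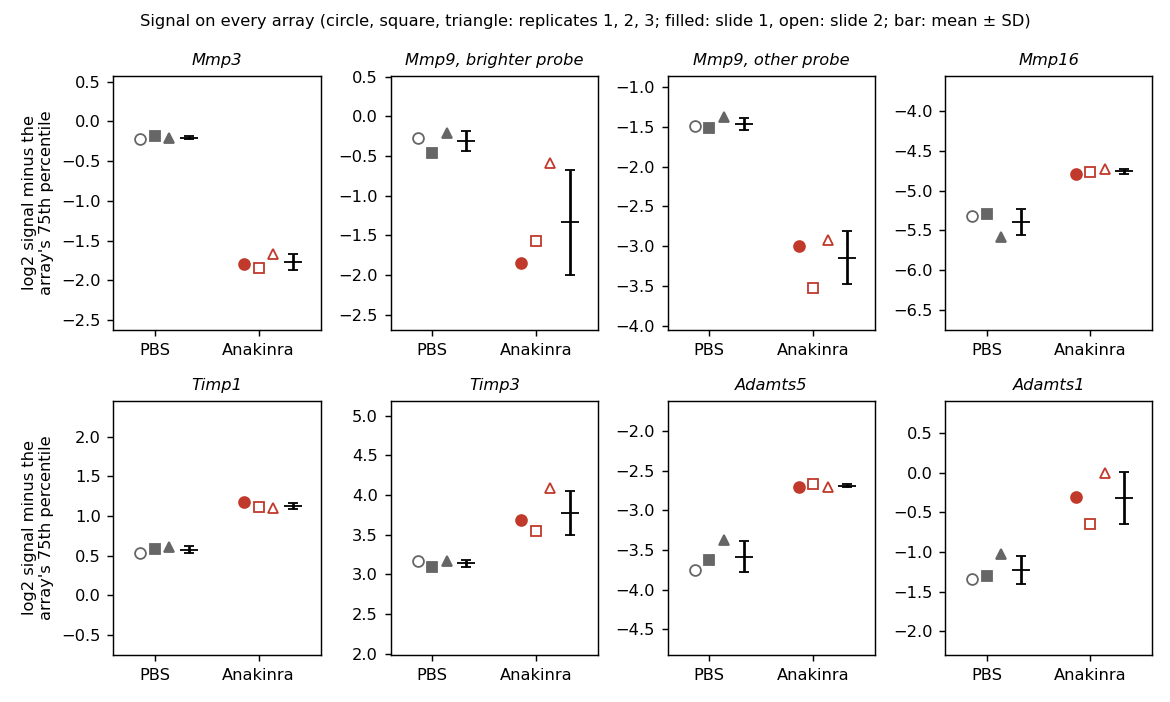
Log2 signal relative to the array's 75th percentile on each of the 6 arrays for 7 genes, with both probes of Mmp9; symbols give the replicate, filled ones are on slide 1, and the bar is the mean ± SD of 3 arrays. Mmp3 lay near -0.2 on the PBS arrays and between -1.85 and -1.67 on the Anakinra arrays, while the brighter Mmp9 probe spread from -1.85 to -0.59 under Anakinra.

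The 5 other tested genes of the chromosome 9 cluster did not pass. Read from the brightest probe of each, their log2 changes lay between -0.59 and 0.38. Mmp1a, an interstitial collagenase of the mouse whose probe starts 19.6 kb from that of Mmp3, had log2 signals of -3.61, -3.21 and -3.37 in PBS and -3.11, -2.69 and -3.29 in Anakinra. Its log2 change was 0.37 ± 0.19 (SE, limma adjusted p = 0.429), and the groups overlapped. The dimmer probe of Mmp1a gave 0.72 ± 0.22 (SE, limma adjusted p = 0.260 over all passing probes), without overlap of the groups. For Mmp10, stromelysin 2, at 54.3 kb, the log2 signals came to -0.95, -0.67 and -0.87 in PBS and -0.42, -0.87 and -0.052 in Anakinra, and the log2 change was 0.38 ± 0.22 (SE, limma adjusted p = 0.480). Anakinra 3 and Anakinra 1 gave its highest values, and Anakinra 2 lay within the PBS range.

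On the other side of Mmp3, Mmp12 encodes the macrophage metalloelastase and Mmp13 a collagenase. Mmp12, at -101 kb from the Mmp3 probe, had log2 signals of -3.82, -3.74 and -3.38 in PBS and -3.61, -3.62 and -2.75 in Anakinra and a log2 change of 0.32 ± 0.28 (SE, limma adjusted p = 0.649). Only Anakinra 3 lay above the PBS arrays. Mmp13, at -173 kb, had log2 signals of -3.43, -3.35 and -3.08 in PBS and -4.65, -2.89 and -3.22 in Anakinra and a log2 change of -0.30 ± 0.48 (SE, limma adjusted p = 0.830). Its changes were opposite on the slides, -1.44 within slide 1 and 0.37 within slide 2. Mmp8, the neutrophil collagenase, at 112 kb, had log2 signals of -3.68, -3.98 and -3.56 in PBS and -5.54, -2.68 and -4.76 in Anakinra and a log2 change of -0.59 ± 0.75 (SE, limma adjusted p = 0.774). Its Anakinra values spanned more than its PBS values, and only 1 of the 3 Anakinra arrays was well above background. Mmp20 and Mmp7 lie further along the chromosome and were not tested.

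The log2 change of Mmp3 was lower by 1.95 than that of Mmp10, by 1.93 than Mmp1a, by 1.89 than Mmp12, by 1.26 than Mmp13 and by 0.98 than Mmp8. These differences are a description with no test, since Mmp3 was set against its neighbours because it had fallen on the same arrays.

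**Figure D3:**
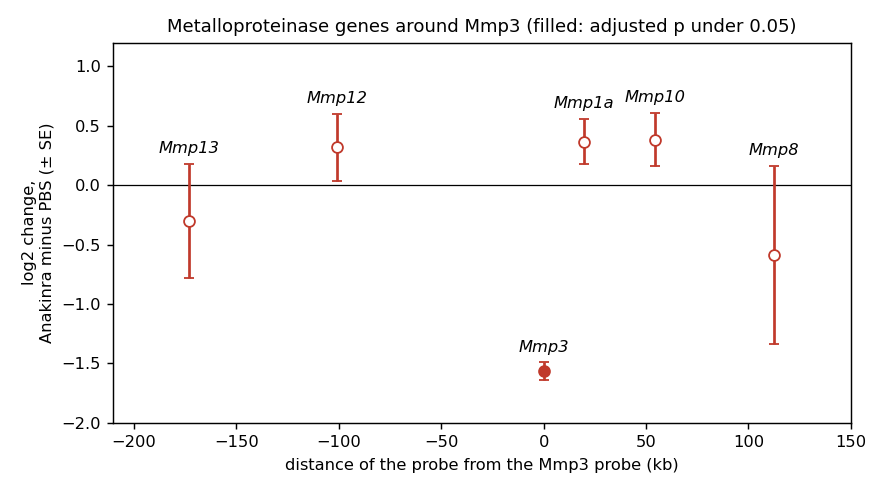
Log2 change, Anakinra minus PBS, with bars of 1 SE, against the distance of each probe from the Mmp3 probe in kb (start to start, build mm8). Mmp3, the only filled point, lies at -1.56, and the 5 neighbours lie between -0.59 and 0.38.

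The gelatinases cut basement membrane collagen and denatured collagen. The 2 probes of Mmp9, gelatinase B, gave unlike results. The brighter one, which stands for the gene by the rule used for all genes, had log2 signals of -0.27, -0.46 and -0.21 in PBS and -1.85, -1.57 and -0.59 in Anakinra. All Anakinra arrays lay below all PBS arrays, but Anakinra 3 lay close to them. Its log2 change was -1.02 ± 0.34 (SE, limma adjusted p = 0.242); it did not pass here, though it passed without Anakinra 3 at -1.40 (adjusted p = 0.0480) and with normexp background correction at -1.18 (adjusted p = 0.00865). The other probe, printed on 10 spots of each array, had log2 signals of -1.49, -1.51 and -1.38 in PBS and -2.99, -3.53 and -2.92 in Anakinra. That probe gave a log2 change of -1.69 ± 0.18 (SE, limma adjusted p = 0.0261 over all passing probes), or 3.22-fold lower, with -1.55 within slide 1 and -1.73 within slide 2. The probes lie at chr2:164646008-164646067 and chr2:164646325-164646384 on build mm8, both on the plus strand. Which of them follows the transcript more closely was not tested.

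Mmp2, gelatinase A, had log2 signals of -1.49, -1.54 and -1.62 in PBS and -1.71, -1.68 and -1.79 in Anakinra. The Anakinra arrays were the lower ones without overlap, by a log2 change of -0.18 ± 0.07 (SE, limma adjusted p = 0.311). Leukocytes can supply Mmp8, Mmp9 and Mmp12: of the 10 leukocyte marker names listed, 4 were tested, none passed and all 4 changes were negative (median -0.25). Their summed signal was 4.33 to 4.86 times the 75th percentile in PBS and 4.03 to 4.48 in Anakinra, and Ptprc, Itgam and Adgre1, which define leukocytes and macrophages, were not above background on all arrays of either group. Of the 5 neutrophil markers on the array, 3 were tested and none passed, with summed signals of 0.125 to 0.201 in PBS and 0.112 to 0.537 in Anakinra. Their part in the result was not tested.

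Of the membrane-bound Mmps, none passed. Mmp14, the main activator of pro-gelatinase A at the cell surface, had log2 signals of 3.75, 3.56 and 3.64 in PBS and 3.50, 3.39 and 3.24 in Anakinra and a log2 change of -0.27 ± 0.10 (SE, limma adjusted p = 0.262). Its groups did not overlap, and the change was -0.10 within slide 1 and -0.43 within slide 2. Its second probe gave a log2 change of -0.36 ± 0.14. Mmp16, another transmembrane MMP, had log2 signals of -5.32, -5.29 and -5.58 in PBS and -4.79, -4.76 and -4.73 in Anakinra. It was dim, at 21.7, 25.3 and 21.0 units in PBS and 36.3, 40.2 and 40.3 units in Anakinra. Its other probe did not pass the filter. Each group was tight and they did not overlap, with a log2 change of 0.64 ± 0.10 (SE, limma adjusted p = 0.0546); it passed with the deposited value table (0.70, adjusted p = 0.0405) and when probes had to be above background on all 6 arrays (0.64, adjusted p = 0.0234), while quantile normalization gave 0.17 and normexp 0.16.

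Mmp15, also a transmembrane enzyme, had log2 signals of -3.59, -3.52 and -3.57 in PBS and -3.84, -3.46 and -3.46 in Anakinra and a log2 change of -0.029 ± 0.12 (SE, limma adjusted p = 0.955). Mmp24, of the same type, had log2 signals of -3.46, -3.74 and -3.56 in PBS and -3.53, -2.77 and -3.48 in Anakinra, where Anakinra 2 alone stood above the rest, and a log2 change of 0.33 ± 0.23 (SE, limma adjusted p = 0.565). The lipid-anchored Mmp17 had log2 signals of -3.14, -2.88 and -2.70 in PBS and -2.66, -2.54 and -3.10 in Anakinra and a log2 change of 0.14 ± 0.19 (SE, limma adjusted p = 0.796). In all 3 the groups overlapped. Mmp23, an unusual member held in the membrane by its amino-terminal end, had log2 signals of -3.45, -3.46 and -3.25 in PBS and -3.39, -2.67 and -3.21 in Anakinra and a log2 change of 0.30 ± 0.20 (SE, limma adjusted p = 0.550). As in Mmp24, the high value was that of Anakinra 2.

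The last tested Mmps are secreted. Mmp11, stromelysin 3, which furin-type convertases activate inside the cell, had the smallest spread of the uncalled Mmps, with log2 signals of -0.56, -0.64 and -0.67 in PBS and -0.69, -0.58 and -0.70 in Anakinra and a log2 change of -0.033 ± 0.069 (SE, limma adjusted p = 0.883). Mmp28, epilysin, known from keratinocytes, had log2 signals of -5.95, -5.40 and -4.68 in PBS and -5.79, -3.47 and -4.94 in Anakinra and a log2 change of 0.61 ± 0.67 (SE, limma adjusted p = 0.726). It was dim, only Anakinra 2 was well above background in its group, and the groups overlapped.

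Of the inhibitors, Timp1 rose, and the other 2 tested did not pass. Timp1, a secreted inhibitor of most MMPs, had processed intensities of 1245, 1475 and 1538 units in PBS and 2258, 2349 and 2282 units in Anakinra. Its log2 signals came to 0.53, 0.58 and 0.61 in PBS and 1.17, 1.11 and 1.10 in Anakinra, so that every Anakinra array lay above every PBS array. The log2 change was 0.55 ± 0.061 (SE, limma adjusted p = 0.0224), a 1.47-fold rise, and within each slide it was 0.58. The second probe of Timp1 gave 0.57 ± 0.10 (SE, limma adjusted p = 0.0855 over all passing probes) and did not pass. Taking the slide as a block, Timp1 missed the threshold (adjusted p = 0.0756). It also missed when any 1 of the 6 arrays was left out (log2 change 0.53 to 0.57, adjusted p from 0.0535 to 0.206). Scaling on array medians, which moved the median of all genes to -0.32, gave 0.22 ± 0.45 (SE, limma adjusted p = 0.875), or 0.54 above that median. Without the filter on dim probes the adjusted p was 0.155.

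Timp3, which binds the matrix and also inhibits ADAM17 and several ADAMTSs, had log2 signals of 3.17, 3.09 and 3.16 in PBS and 3.68, 3.54 and 4.08 in Anakinra. All Anakinra arrays lay higher, with Anakinra 3 farthest, and the log2 change was 0.63 ± 0.15 (SE, limma adjusted p = 0.136). Timp2, which takes part in the activation of pro-gelatinase A by Mmp14, had log2 signals of 0.55, 0.42 and 0.39 in PBS and 0.56, 0.41 and 0.21 in Anakinra and a log2 change of -0.057 ± 0.11 (SE, limma adjusted p = 0.871), with overlapping groups. Timp4 was not tested.

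The sheddases ADAM10 and ADAM17, which release growth factors and cytokines from the keratinocyte surface, did not pass. Adam17, the TNF-alpha converting enzyme, had log2 signals of 1.16, 1.16 and 1.21 in PBS and 1.14, 0.89 and 0.98 in Anakinra and a log2 change of -0.18 ± 0.085 (SE, limma adjusted p = 0.390). The groups lay close together without overlap, with a change of -0.047 within slide 1 and -0.23 within slide 2. The second probe of Adam17 gave -0.063 ± 0.067, with overlapping groups. Adam10, the sheddase of Notch and E-cadherin, had log2 signals of -0.56, -0.51 and -0.38 in PBS and -0.14, -0.38 and -0.38 in Anakinra and a log2 change of 0.18 ± 0.10 (SE, limma adjusted p = 0.449). Anakinra 1 lay above the other arrays, and the groups overlapped.

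Among the other tested Adams, the 5 with the largest changes were Adam28, Adam11, Adam33, Adam12 and Adam1a, and none passed. Adam12, linked to muscle and mesenchymal cells, had log2 signals of -2.62, -2.88 and -2.62 in PBS and -3.16, -3.30 and -2.95 in Anakinra, all lower under Anakinra, and a log2 change of -0.43 ± 0.13 (SE, limma adjusted p = 0.201). Adam28 had log2 signals of -4.63, -4.77 and -3.84 in PBS and -5.21, -2.40 and -3.23 in Anakinra and a log2 change of 0.80 ± 0.77 (SE, limma adjusted p = 0.677). The non-catalytic Adam11 had log2 signals of -4.18, -4.80 and -4.09 in PBS and -5.25, -2.62 and -3.54 in Anakinra and a log2 change of 0.55 ± 0.70 (SE, limma adjusted p = 0.773). In both the group of Anakinra held the highest and the lowest array, Anakinra 2 and Anakinra 1. Adam33 had log2 signals of -5.29, -5.55 and -4.81 in PBS and -5.51, -3.34 and -5.36 in Anakinra and a log2 change of 0.48 ± 0.64 (SE, limma adjusted p = 0.787). Adam1a, a fertilin subunit gene, had log2 signals of -3.73, -3.87 and -2.95 in PBS and -3.89, -1.98 and -3.51 in Anakinra and a log2 change of 0.39 ± 0.57 (SE, limma adjusted p = 0.809). Anakinra 2 was the highest array in these 2 as well.

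Of the 4 Adams not yet given, Adam8 and Adam15 had groups that did not overlap. Adam8, known from leukocytes and inflamed epithelia, had a log2 change of -0.33 ± 0.077 (SE, limma adjusted p = 0.131). Adam15 had one of 0.21 ± 0.072 (SE, limma adjusted p = 0.249). The second probe of Adam15 gave 0.014 ± 0.18, with overlapping groups. The log2 changes of Adam9 and Adam4 were -0.25 ± 0.12 and -0.20 ± 0.21, with overlapping groups. None of the 4 passed.

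Of the 14 tested ADAMTS and ADAMTS-like genes, 1 rose. Adamts5, an aggrecanase that also cuts versican, had processed intensities of 64.2, 80.1 and 97.0 units in PBS and 154, 171 and 164 units in Anakinra. Its log2 signals came to -3.75, -3.62 and -3.37 in PBS and -2.70, -2.67 and -2.70 in Anakinra, and the Anakinra arrays were higher without overlap. The log2 change was 0.89 ± 0.11 (SE, limma adjusted p = 0.0300), a 1.86-fold rise, at 0.80 within slide 1 and 1.07 within slide 2. The call was lost when the slide was a block (0.93, adjusted p = 0.0925), with array weights (0.88, adjusted p = 0.0690), with normexp correction (0.53, adjusted p = 0.0508) or with quantile normalization (0.56, adjusted p = 0.281). It was lost as well without the filter on dim probes (adjusted p = 0.129) and on array medians (0.56 ± 0.45, adjusted p = 0.869). On array medians the change was still 0.88 above the median of all genes, as in the main setting. Each gene reported on array medians had that same SE, so its adjusted p followed the size of the change alone. Leaving out 1 array kept the call only without PBS 3 (0.997, adjusted p = 0.0497), and the other 5 gave adjusted p from 0.0644 to 0.243.

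Adamts1, a versican-cutting enzyme whose probe starts 67.6 kb from that of Adamts5 on chromosome 16 (build mm8), had log2 signals of -1.34, -1.30 and -1.03 in PBS and -0.31, -0.65 and 0.0012 in Anakinra. Every Anakinra array lay above every PBS array, with a log2 change of 0.91 ± 0.19 (SE, limma adjusted p = 0.105), 0.85 within slide 1 and 1.02 within slide 2. Its second probe gave 0.69 ± 0.20. The size was like that of Adamts5, but the Anakinra arrays spread more and the gene did not pass.

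Adamts16, Adamts10 and Adamts14 had the next largest ADAMTS changes. Adamts16 had log2 signals of -4.85, -4.43 and -4.30 in PBS and -4.52, -3.07 and -3.94 in Anakinra and a log2 change of 0.68 ± 0.40 (SE, limma adjusted p = 0.477). Adamts10 had log2 signals of -4.86, -5.12 and -4.59 in PBS and -5.32, -2.67 and -4.89 in Anakinra and a log2 change of 0.56 ± 0.72 (SE, limma adjusted p = 0.777). It was well above background on 2 of the 3 Anakinra arrays. Adamts14, a procollagen amino-propeptidase, had log2 signals of -2.82, -2.57 and -2.34 in PBS and -2.51, -1.84 and -2.63 in Anakinra and a log2 change of 0.26 ± 0.25 (SE, limma adjusted p = 0.682). In all 3 Anakinra 2 was the highest array and the groups overlapped. The other 7, Adamts2, Adamts3, Adamts4, Adamts7, Adamts8, Adamts9 and Adamts20, had log2 changes from -0.19 to 0.11, with SEs from 0.30 to 1.04. Adamtsl4 and Adamtsl5, which lack the catalytic part, had log2 changes of 0.55 ± 0.30 (SE, limma adjusted p = 0.451) and -0.11 ± 0.11 (SE, limma adjusted p = 0.702). Adamtsl4 had log2 signals of -3.86, -3.53 and -3.28 in PBS and -3.35, -2.42 and -3.27 in Anakinra, and Adamtsl5 of 0.999, 0.93 and 0.78 in PBS and 0.73, 0.98 and 0.66 in Anakinra. A dimmer probe of Adamtsl5 gave 0.36 ± 0.09 and a dimmer probe of Adamts7 gave -0.65 ± 0.17, so the probes of these genes gave changes of unlike sign. Passing probes of Adamts2, Adamts10, Adam11 and Adam28 also differed in sign.

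**Figure D4:**
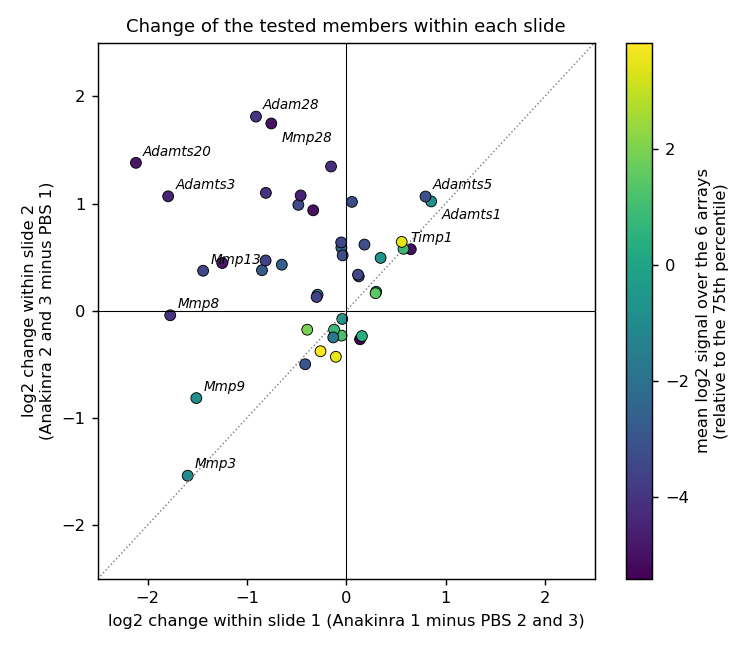
Log2 change of each of the 44 tested genes within slide 1 (horizontal) and within slide 2 (vertical), coloured by mean log2 signal; the dotted line marks equal changes. Mmp3, Timp1, Adamts1 and Adamts5 lie near the line, and 21 of the 44 genes, most of them dim, have opposite signs on the slides.

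Fibroblasts and differentiating keratinocytes also make these proteins, so their markers were read on the same arrays. Krt5 and Krt14, which define basal keratinocytes, had log2 signals from 8.72 to 9.04 on all 6 arrays. Of 13 tested fibroblast markers, 2 rose (Lum, 1.43 ± 0.15, limma adjusted p = 0.0200, and Col3a1, 0.95 ± 0.13, adjusted p = 0.0403), none fell and 11 had positive log2 changes. Dcn (-0.38 ± 0.067, limma adjusted p = 0.0705) and Twist2 (-0.79 ± 0.14, limma adjusted p = 0.0714) had negative ones. In both, every Anakinra array lay below every PBS array. Over all genes 52.3% of log2 changes were positive. The summed signal of the 13 markers was 12.0 to 14.9 times the 75th percentile in PBS and 14.8 to 17.1 in Anakinra. The ranges only just overlapped. The log2 change of Lum was 0.50 with normexp correction and 1.04 with quantile normalization (adjusted p = 0.379). Of 8 keratinocyte markers, Krt1 (2.35 ± 0.19, adjusted p = 0.0112) and Krt10 (2.40 ± 0.26, adjusted p = 0.0207), keratins of the differentiating layers, rose, while the summed signal was 964 to 1084 in PBS and 926 to 1020 in Anakinra. Krt79, 1 of 4 tested hair follicle markers, rose by 0.86 ± 0.06 (adjusted p = 0.00742). None of these 5 passed once the slide was a block, at adjusted p of 0.0501 for Krt79, 0.0557 for Lum, 0.0601 for Krt1, 0.0942 for Krt10 and 0.143 for Col3a1. Summed hair follicle signal, which includes Krt79, was 9.70 to 10.7 in PBS and 12.1 to 14.3 in Anakinra. The other tested follicle markers did not pass. These were Krt15 (0.52 ± 0.19, limma adjusted p = 0.272), Sox9 (0.14 ± 0.14, 0.687) and Lhx2 (-0.088 ± 0.084, 0.675). For Sox9 and Lhx2 the groups overlapped. All 7 tested melanocyte markers had positive log2 changes, none passed, and their summed signal was 90.1 to 108 in PBS and 104 to 112 in Anakinra. Of 3 tested endothelial markers none passed, with sums of 2.00 to 2.12 in PBS and 1.61 to 1.91 in Anakinra. The part of these markers in the rises of Timp1 and Adamts5 was not tested.

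The partners of these enzymes were read from a list of 62 genes for activation, inhibition, transport and substrates, of which 56 were tested. Of these 56, 2 rose and 4 fell, beside 1.77% of all genes called. Their median log2 change was 0.07, beside 0.01 over all genes. The list was chosen with earlier results of these data known, so the share called in it is a description without a test. Of the 21 surface proteins shed by ADAM10 or ADAM17, 4 fell and 1 rose. Tnf, the substrate that gave ADAM17 its name, had log2 signals of 0.83, 0.94 and 1.04 in PBS and -1.58, -1.88 and -1.63 in Anakinra and fell by a log2 change of -2.63 ± 0.11 (limma adjusted p = 0.00226). Cx3cl1, a membrane-bound chemokine, had log2 signals of 0.16, 0.24 and 0.038 in PBS and -1.10, -0.94 and -1.03 in Anakinra and fell, with -1.17 ± 0.084 (limma adjusted p = 0.00834). Icam1, an adhesion molecule for leukocytes, had log2 signals of 1.87, 1.76 and 1.89 in PBS and 1.14, 1.04 and 1.13 in Anakinra and fell, with -0.73 ± 0.07 (limma adjusted p = 0.0162). The chemokine Cxcl16 had log2 signals of 4.72, 4.76 and 4.76 in PBS and 4.15, 3.98 and 4.05 in Anakinra and fell, with -0.68 ± 0.07 (limma adjusted p = 0.0188). In all 4 the Anakinra arrays lay below the PBS arrays. For Cx3cl1 the mean over its probes gave -0.50 ± 0.50 (limma adjusted p = 0.728), so that call rests on the brightest probe. Epgn, a ligand of the epidermal growth factor receptor, rose, with log2 signals of 3.27, 3.08 and 3.13 in PBS and 3.88, 4.07 and 4.14 in Anakinra and 0.87 ± 0.10 (limma adjusted p = 0.0249).

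With the slide as a block, Tnf passed (adjusted p = 0.0218) and the others did not, at adjusted p from 0.0501 for Cx3cl1 to 0.0762 for Icam1 and 0.0505 for Epgn. With 1 array left out in turn, Tnf passed in 5 of 6 fits (not without PBS 2, adjusted p = 0.0553) and Cx3cl1 in 4 (not without PBS 1, 0.0811, or PBS 2, 0.0855). Icam1 and Cxcl16 passed in 1, without Anakinra 2 (adjusted p = 0.0382 and 0.0417), and Epgn in 0. On array medians Tnf passed and Cx3cl1 (adjusted p = 0.148), Icam1, Cxcl16, Epgn and Nid1 (0.869 each) did not. All of these had the same SE there, 0.45, so the adjusted p followed the size of the change alone. Other ligands of the epidermal growth factor receptor had log2 changes of 0.17 ± 0.12 (limma adjusted p = 0.562) for Tgfa, 0.12 ± 0.092 (limma adjusted p = 0.583) for Areg and 0.057 ± 0.12 (limma adjusted p = 0.888) for Hbegf, none of which passed.

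Of 13 tested matrix substrates, 12 had positive log2 changes and 1 rose. This was Nid1, a basement membrane protein that links laminin to collagen IV, with log2 signals of -1.50, -1.29 and -1.52 in PBS and -0.69, -0.79 and -0.59 in Anakinra and a log2 change of 0.74 ± 0.10 (limma adjusted p = 0.0339). With the slide as a block it missed the threshold (adjusted p = 0.122), as it did in each of the 6 fits without 1 array. Versican, the substrate of Adamts1 and Adamts5, was at 0.45 ± 0.11 (limma adjusted p = 0.131). Among the activators, the plasminogen activator Plat was at 0.37 ± 0.057 (limma adjusted p = 0.0528) and the urokinase receptor Plaur at -0.41 ± 0.08 (limma adjusted p = 0.0895). The pro-domain convertase Pcsk7 was at 0.33 ± 0.07 (limma adjusted p = 0.104). The iRhom genes Rhbdf1 and Rhbdf2, whose proteins carry ADAM17 to the surface, were at -0.42 ± 0.077 (limma adjusted p = 0.0781) and -0.29 ± 0.066 (limma adjusted p = 0.121). None of these 6, which were named for having the next smallest p, passed. None of the 4 convertases, 4 plasmin route genes, 3 chaperones of ADAM17, 6 tetraspanins of ADAM10, 2 tested astacins, 2 surface anchors or 1 tested non-TIMP inhibitor passed.

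Across the settings tried, 5 of the 44 genes passed in at least 1: Mmp3, Timp1, Adamts5, Mmp16 and Mmp9. In all 18 alternatives 16 of the 44 kept their direction, these 5 among them.

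**Figure D5:**
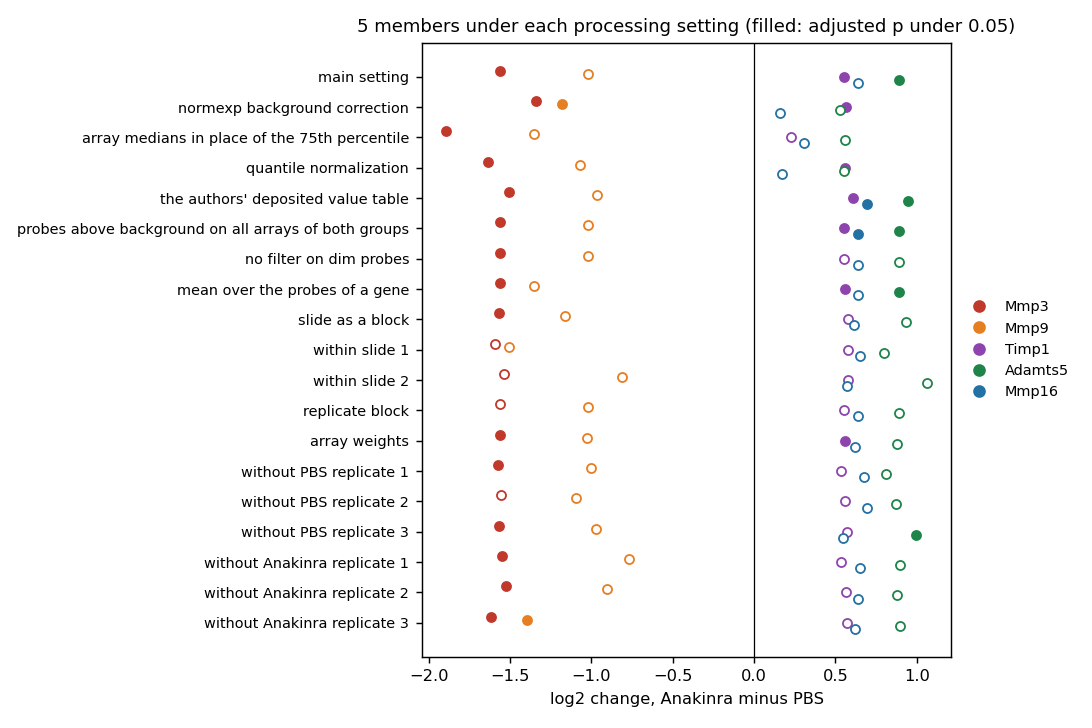
Log2 change, Anakinra minus PBS, of Mmp3, Mmp9, Timp1, Adamts5 and Mmp16 under the setting used above and 18 alternatives (filled: adjusted p under 0.05). Mmp3 is filled in all but 4, those being either slide alone, where 1 group has a single array, the replicate block and the fit without PBS 2, while each other gene is filled in fewer.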

How the data were processed

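Total RNA of 6 keratinocyte cultures, 3 PBS and 3 Anakinra, was measured on one-colour arrays, read per the file headers with Agilent Feature Extraction 9.5.3.1. The deposited intensity per spot is the authors' processed signal, background-subtracted and detrended within each array per the file headers, and not normalised between arrays. The authors also deposited log2 values, which equalled the log2 of that intensity plus 1 constant per array, to within 0.001. How these constants were set, and so the scaling between arrays, is unknown here.

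The analysis took the log2 intensity minus each array's 75th percentile, without control and outlier spots, averaged the spots of a probe, and kept probes well above background on all arrays of a group with at least 2 values per group. The brightest such probe stood for the gene, and symbols are those in the files (partners and markers: updated through RefSeq, GRCm38.p6). Probes of Adamtsl1 and Adamtsl3 under older names were left out. Groups were compared with lmFit and eBayes in limma 3.58.1 (R 4.3.3), two-sided, with Benjamini-Hochberg adjustment over 16506 genes. The fit was tested on simulated data with equal spread in both groups and no array or slide effects. The Anakinra arrays here correlated less than the PBS arrays, and the simulation did not cover that. The 3 arrays per group limit the precision.

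Values on every array are given for called genes, all tested Timps and Mmps, Adam10, Adam17 and the 5 largest changes of each other subfamily; of partners, called ones and the 6 next by p. Genes and lists were chosen with earlier results of these data known. Alternatives covered background correction, scaling, the deposited table, filters, probe averaging, slide, replicate number, array weights and leaving out each array.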

Additional observations from a re-analysis of the deposited data

How the results depend on the processing

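Values that moved are given by setting, genes higher and lower first, then the 44 metalloproteinase genes and their median log2 change. Against 160 and 132 genes, 2 and 1 of the 44 and 0.12, array medians gave 8 and 49, 0 higher and -0.21 (the median of all genes being -0.32). The genes whose array-median values are given above shared 1 SE in that fit, 0.45, so their own spread did not enter. Probes above background in both groups gave 338 and 240, and no filter 7 and 29 with 0 higher. The slide as a block gave 6 and 30 with 0 higher. Within slide 1 and within slide 2 there were 0 and 0 genes, and 0 and 0 metalloproteinase genes, with a median of 0.49 within slide 2, where 57 of the 77 pass the filter (limma, unadjusted p under 0.05 in 2707 and 574 genes). Slide 1 has 1 Anakinra array and slide 2 has 1 PBS array, assumed to vary like the other group, so 0 calls there say nothing about stability. Normexp gave 1 and 2 of the 44, quantile normalization 1 higher and array weights 1 higher. Leaving out each array gave 1 to 97 genes higher and 7 to 137 lower, 0 to 1 and 0 to 2 of the metalloproteinase genes, and medians from -0.11 to 0.36, over 44 genes, or 54 without PBS 2 and 46 without Anakinra 1. Whether replicate numbers pair the arrays was not settled. Deviations of same-numbered arrays correlated at 0.41, -0.49 and -0.21 across genes. Those of differently numbered arrays ran from -0.67 to 0.70, so these correlations cannot decide it. With the replicate block 0 genes were higher and 0 lower, 0 and 0 of the 44, and Mmp3 had an adjusted p of 0.139 at -1.56; 1767 genes and 9 of the 44 had an unadjusted p under 0.05 there. Among the 44 genes' changes under the alternatives, 72 of 784 had the opposite sign, 23 of them with an array left out, and none of these was called. Mmp3, Timp1, Adamts5, Mmp9 and Mmp16 kept their sign throughout. Signal over background limits the dim genes most.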

Other observations

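The 33 genes that were not tested were 18 Adam, 6 Adamts, 3 Adamtsl, 5 Mmp genes and Timp4. For 4 of them, Adam2, Adam3, Mmp20 and Mmp21, no probe was well above background on any array. Adam2 and Adam3 encode sperm surface proteins, and Mmp20 the enamel enzyme enamelysin. Of the other 29, 27 were above background on Anakinra 2, and 8 of these on no other array: Adam21, Adam22, Adam39, Adam5, Adam6, Adamts13, Adamts19 and Adamtsl1. Not 1 of the 33 was above background on Anakinra 1, and 3 were on Anakinra 3. Of the spots of all 77 genes, 51.4% to 70.0% were well above background on the PBS arrays, 42.9% on Anakinra 1, 85.7% on Anakinra 2 and 41.4% on Anakinra 3.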
